A study of Homo sapiens with 13 samples.

Results

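Calpains are intracellular cysteine proteases that cut a limited number of sites in their substrates, and most of them depend on calcium. The genes described here are CAPN14, CAPN13, CAPN1, CAPN2, CAPN5, CAPN7 and CAPN10, which encode catalytic subunits, CAPNS1, which encodes the common small subunit, and CAST, which encodes calpastatin, the inhibitor of the classical calpains. These 9 genes of the 23637 in the RNA tables were taken by their symbols as members of the family. All 9 were found in the RNA tables. The cells were TE-7, an established human line of esophageal epithelium. Treated cells received 100 ng/ml of the cytokine interleukin-13 (IL-13) for 2, 6 or 24 hr, and control cells of the same 3 times had no IL-13. RNA was sequenced in 6 libraries, of which each treatment at each time has 1. In ChIP-seq, which sequences the DNA bound to an immunoprecipitated histone mark, H3K4me3, H3K9Ac and H3K27Ac of active promoters or enhancers were each measured in 1 library with 6 hr of IL-13 and 1 control library. The model is a single cell line at a single dose, and with 1 library in a group no difference between 2 libraries has a replicate check.

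The classical calpains CAPN1 (µ-calpain) and CAPN2 (m-calpain) work as heterodimers of a catalytic subunit with CAPNS1, and calpastatin binds and blocks these calcium-loaded dimers. The other catalytic subunits differ from them in their domains and in their dependence on CAPNS1. In the esophagus, CAPN14 is known as a calpain of squamous epithelium that IL-13 can induce in primary epithelial cultures, and its locus carries genetic risk for eosinophilic esophagitis.

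The promoters of CAPN14 and CAPN13 are printed because CAPN14 has starts of very different base composition and because STAT6, the factor that IL-13 activates, prefers the letters TTC and GAA with 4 free letters between them, called the STAT6 motif here. Each window runs from 250 bases before to 50 bases after an annotated start and comes from RefSeq on GRCh38.p14, minus strand. Capitals mark that motif, which is its own reverse complement, so the search covers both strands. The CAPN14 window at chr2:31217466-31217765 was the only one of 17 windows of 8 of the 9 genes to hold this motif.
CAPN14, near start: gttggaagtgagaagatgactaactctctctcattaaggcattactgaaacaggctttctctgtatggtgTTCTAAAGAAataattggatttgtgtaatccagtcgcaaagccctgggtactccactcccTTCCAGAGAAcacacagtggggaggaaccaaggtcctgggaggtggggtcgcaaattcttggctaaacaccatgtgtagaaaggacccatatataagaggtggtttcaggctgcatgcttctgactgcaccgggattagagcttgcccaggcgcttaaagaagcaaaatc
CAPN14, far start (chr2:31233908-31234207): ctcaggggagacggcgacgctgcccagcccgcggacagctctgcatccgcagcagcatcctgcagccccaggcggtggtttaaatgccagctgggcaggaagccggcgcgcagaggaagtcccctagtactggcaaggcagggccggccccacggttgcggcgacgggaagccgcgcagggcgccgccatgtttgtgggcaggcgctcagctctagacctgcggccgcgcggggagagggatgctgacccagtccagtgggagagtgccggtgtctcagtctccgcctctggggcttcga
CAPN13 (chr2:30807397-30807696): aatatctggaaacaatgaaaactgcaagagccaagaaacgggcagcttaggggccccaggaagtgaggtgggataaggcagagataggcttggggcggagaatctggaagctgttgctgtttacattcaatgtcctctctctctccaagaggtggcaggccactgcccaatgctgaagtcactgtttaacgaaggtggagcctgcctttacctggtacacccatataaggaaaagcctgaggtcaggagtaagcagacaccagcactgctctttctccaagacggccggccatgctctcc
In the CAPN14 window at chr2:31217466-31217765, TTCTAAAGAA began 180 bases and TTCCAGAGAA began 120 bases before the start. The motif was present in 6.44% of all 35116 windows, and at 2 or more places in 0.288% of them. The 1 of 17 windows of the family is near the first share, so that count does not set the family apart. The variant with 3 free letters, TTCNNNGAA, which the other STAT factors prefer and which cannot coincide with the first at the same TTC and GAA, was in 7.66% of all windows and in 0 windows of the 9 genes. The single windows of CCL26 and SOCS1, genes that IL-13 is known to induce, held 0 matches of the STAT6 motif. These matches describe letters in a window and do not show binding.
The same CAPN14 window had a GC content of 47% and 4 CpG dinucleotides, and the far start had 69.7% and 27. The CAPN13 window had 52.3% and 5. The median over all windows was 58.7% GC and 14 CpG, so the far start of CAPN14 was richer, and both other windows were poorer, than the median. The 2 starts of CAPN14 lie 16.4 kb apart. In the RNA tables (hg19) CAPN14 spans 44490 bp, against 44460 bp from the CpG-poor start and 60902 bp from the far start on GRCh38.p14. By its span, the gene model of the RNA tables therefore begins at the CpG-poor start.

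The treatment was visible in the RNA. CCL26, which encodes eotaxin-3, stood at 4.29, 8.75 and 30.1 times its control level at 2, 6 and 24 hr of IL-13. RPKM, which scales reads to the length of the transcript and to the mapped reads of the library, is the scale of all RNA levels here. The genes at an RPKM of 1 or more numbered 11794 to 12306 per library. The libraries held 1 read set (24 hr) or 2 read sets (2 and 6 hr) of 13 to 26.9 megareads (mega in its metric sense), and the controls at 2 and 6 hr appear to have a set of 15.7 megareads in common. The labels do not state this set, which was inferred from an equal step and 359 identical values between those controls, against 0 in the other 14 pairs of libraries. The limma fits treat the 6 libraries as separate, and their p-values take no account of it. All 10 squamous markers reached an RPKM of 1 in every library, and 0 of 8 columnar markers did, with CDX1 and CDX2 at 0 throughout. The 10 brain markers summed to 24.3 RPKM in the 2 hr control, where 7 of them reached an RPKM of 1, against 6.25 to 8.01 RPKM in the other 5 libraries.

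CAPN14 (chromosome 2, 31395922 to 31440411, minus strand, hg19) was low in all 6 libraries and was higher with IL-13 than without it at each time, most at 6 hr. It had 0.105, 0.170 and 0.392 RPKM in the IL-13 libraries at 2, 6 and 24 hr, against 0.0542, 0.0250 and 0.270 RPKM in the controls. Within each time the IL-13 library was the higher, but the 24 hr control lay above the IL-13 libraries of 2 and 6 hr, so the groups overlap over the whole course. The RPKM ratio of IL-13 over control was 1.94, 6.81 and 1.45 at the 3 times in order. No library reached an RPKM of 1, so the size rule used for other genes could not count it. In such bulk RNA, fewer cells of a type and less RNA per cell cannot be told apart.
The low values could be turned back into whole reads, because 1 read in CAPN14 is worth a fixed step of RPKM in each read set. That step depends on the transcript length, which was not given and was fitted. Of 2 fitting lengths the shorter, 3822 bp, was taken, and the other was a multiple of it. The longer length would multiply the reads and narrow the intervals. With IL-13, CAPN14 had 12, 22 and 21 reads at 2, 6 and 24 hr, and the controls had 9, 3 and 14 reads. Per megaread of mapped reads this was 0.412 with IL-13 and 0.211 in the control at 2 hr, and 0.633 with IL-13 and 0.0968 in the control at 6 hr. At 24 hr it was 1.5 with IL-13 and 1.03 in the control. The difference lay outside counting error at 6 hr only, where the rate ratio of IL-13 over control was 6.54 (exact 95% interval 1.97 to 34.1). At 2 hr the ratio was 1.95 (0.754 to 5.24) and at 24 hr it was 1.45 (0.704 to 3.09), and both intervals include 1. These intervals cover counting error alone, not the spread between cultures, and whether the ratios of the 3 times differ was not tested.
All 3 reads of the 6 hr control came from the read set that it appears to share with the 2 hr control. Without that set the 6 hr comparison was 22 reads with IL-13 against 0 in the control, with an exact lower limit of 2.41 for the ratio. The 2 sets of the IL-13 library at 6 hr were uneven, with 6 CAPN14 reads in the set of 18.3 megareads and 16 in the set of 16.4 megareads. In the authors' deposited table the log2 ratio of CAPN14 was 0.96 at 2 hr, 2.78 at 6 hr and 0.52 at 24 hr, and its adjusted p was 1 at each time.

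**Figure D1:**
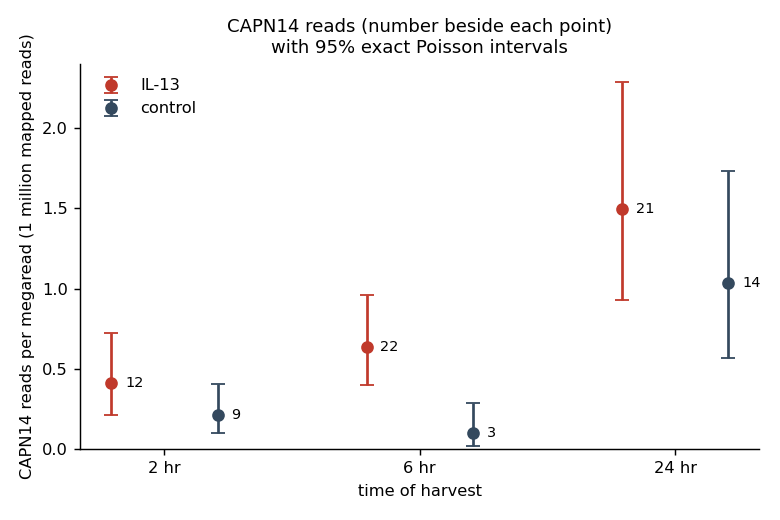
CAPN14 reads per megaread of mapped reads (vertical axis) at 2, 6 and 24 hr, IL-13 left of control, with the read number beside each point and 95% exact Poisson intervals as bars. The 22 reads with IL-13 and the 3 reads of the control at 6 hr have intervals that do not overlap, whereas those of 2 and 24 hr do.

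CAPN14 was higher at 24 hr than at 6 hr in both treatments. Its rate ratio, 24 hr over 6 hr, was 2.36 with IL-13 (exact 95% interval 1.24 to 4.51) and 10.7 in the controls (2.97 to 57.8). The step before differed between treatments: at 6 hr CAPN14 had 22 reads with IL-13, against 12 at 2 hr, and 3 reads in the control, against 9 at 2 hr. The RPKM ratio of 6 hr over 2 hr was 1.62 with IL-13 and 0.461 in the controls, so the control ratio of 10.7 is taken over the lowest of the 6 libraries. In limma without a filter on low values, 24 hr over 6 hr was 1.21 ± 0.22 on the log2 scale (SE, Benjamini-Hochberg adjusted p = 0.0221), and IL-13 over control was 0.65 ± 0.18 (adjusted p = 0.440, unadjusted p = 0.0302). For 24 hr over 6 hr that fit called 32.1% of 19306 genes higher and 16.3% lower, so the call does not set CAPN14 apart. limma is a linear model fitted to all genes, here with time and treatment as terms over the 6 libraries. The 24 hr libraries differ from the earlier ones by an inferred single read set and by a tag in their column headers whose meaning is not stated, and time and this difference cannot be told apart.

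CAPN13 (chromosome 2, 30945638 to 31030311, minus strand, hg19), the neighbouring and closely related calpain, was at the detection limit. With IL-13 it had 0.0116, 0.0646 and 0.0266 RPKM at 2, 6 and 24 hr, and in the controls 0.0605, 0.0363 and 0 RPKM. In reads this was 1, 6 and 1 with IL-13 and 8, 3 and 0 in the controls. The 24 hr control with 0 reads allows up to 0.272 reads per megaread at the exact 95% limit. The direction changed between times, and no difference was detectable at this depth. Of the 8 reads in the 2 hr control, 7 lay in the read set that does not appear in the 6 hr control. That 2 hr library was also the one with the brain markers at 24.3 RPKM, and their part in the CAPN13 value was not tested.

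The classical calpains, their small subunit and their inhibitor were the abundant genes of the family. CAPN1 averaged 171 ± 23.2 RPKM, CAPN2 163 ± 60.7 RPKM, CAPNS1 153 ± 10.4 RPKM and CAST 80.8 ± 20.6 RPKM (SD over all 6 libraries, across treatments and times). CAPN7 averaged 8.43 ± 1.5 RPKM, CAPN10 7.55 ± 0.653 RPKM and CAPN5 0.635 ± 0.213 RPKM, above CAPN14 at 0.169 ± 0.140 RPKM and CAPN13 at 0.0333 ± 0.0259 RPKM. In this order the ranges of CAPN1 and CAPN2, of CAPN2 and CAPNS1, of CAPN7 and CAPN10, and of CAPN14 and CAPN13 overlap, while the other neighbours are apart in every library. RPKM is per length, so the levels of different genes can be set side by side, but only roughly, since the lengths used are not given.

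**Figure D2:**
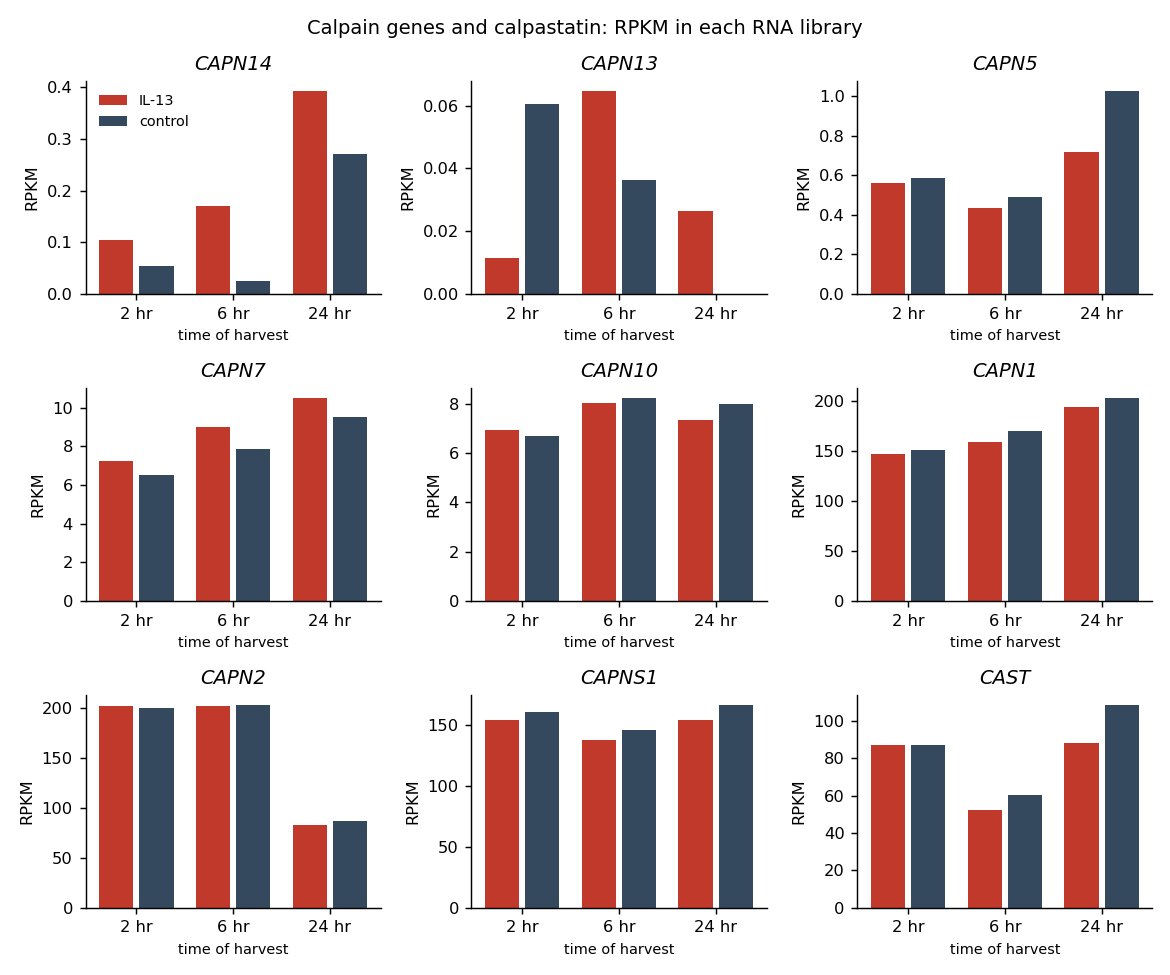
RPKM (vertical axis, linear and starting at 0, with a scale of its own in each panel) of the 9 genes in the 6 RNA libraries, IL-13 left of control at each of 2, 6 and 24 hr. CAPN14 is higher with IL-13 at each time, CAPN2 stands apart at 24 hr in both treatments, and the remaining abundant genes differ little between IL-13 and control.

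No gene of the family differed between IL-13 and control past the size rule, which asks for a 2-fold difference on log2(RPKM + 0.1) with the higher library at 1 RPKM or more. At 2 hr 0 of 6 genes past the minimum were higher or lower, against 0.658% of all genes higher and 0.342% lower. At 6 hr it was 0 of 6, against 0.753% and 0.318%, and at 24 hr 0 of 7, against 0.886% and 1.27%. With so few genes past a rule that takes about 1% of all genes, a count of 0 does not set the family apart. The median log2 ratio of the genes past the minimum was 0.01, -0.06 and -0.11 at 2, 6 and 24 hr, against 0.00, -0.00 and 0.02 over all genes.
CAPN1 (chromosome 11, 64949304 to 64979477, plus strand) had 147, 159 and 194 RPKM with IL-13 at 2, 6 and 24 hr, against 150, 170 and 203 RPKM in the controls. CAPN2 (chromosome 1, 223900119 to 223963720, plus strand) had 202, 202 and 82.4 RPKM with IL-13, against 200, 203 and 86.3 RPKM in the controls. For both, the treated and control libraries of a time lay closer together than the libraries of 6 and 24 hr did. CAPNS1 (chromosome 19, 36630918 to 36641255, plus strand) had 154, 138 and 154 RPKM with IL-13, against 161, 146 and 167 RPKM in the controls. CAPNS1 thus lay slightly lower with IL-13 at each time. The log2 ratios of IL-13 over control for these 3 genes ran from -0.11 to 0.02.
CAST (chromosome 5, 96079244 to 96110385, plus strand) departed most from its control among the 4 abundant genes, at 6 and 24 hr. It had 87.4, 52.5 and 88.1 RPKM with IL-13 at 2, 6 and 24 hr, against 87.4, 60.7 and 109 RPKM in the controls. The log2 ratio was 0.00 at 2 hr, -0.21 at 6 hr and -0.30 at 24 hr, so CAST was equal at 2 hr and lower with IL-13 at the other two times. In the fit over the 3 times it was -0.17 ± 0.07 (SE, limma adjusted p = 0.352). Its span overlaps by 198 bp with ERAP1 on the opposite strand, at 9.51 to 15.1 RPKM, and whether reads were counted by strand is not given in the sources used here.
CAPN7 (chromosome 3, 15247733 to 15294423, plus strand), a calpain that binds ESCRT-III proteins of endosomes, was the only one of the 6 genes past the minimum at all 3 times to lie higher with IL-13 at each of them. It had 7.24, 8.97 and 10.5 RPKM with IL-13, against 6.50, 7.86 and 9.53 RPKM in the controls. The effect shared by the 3 times was 0.16 ± 0.04 on the log2 scale (SE, higher in 3 of 3 times), with an unadjusted p of 0.0187 and an adjusted p of 0.227 in limma. CAPN10 (chromosome 2, 241526133 to 241538526, plus strand), known for genetic association with type 2 diabetes, had 6.93, 8.06 and 7.35 RPKM with IL-13, against 6.69, 8.25 and 8.02 RPKM in the controls. CAPN10 was on either side of its control, at 0.05, -0.03 and -0.12 on the log2 scale.
CAPN5 (chromosome 11, 76777992 to 76837198, plus strand), a calpain whose mutations cause an inherited inflammation of the retina and vitreous, had 0.561, 0.433 and 0.715 RPKM with IL-13, against 0.588, 0.492 and 1.02 RPKM in the controls. Its RPKM lay lower with IL-13 at each time, most at 24 hr. In reads this was 72, 67 and 44 with IL-13, against 111, 67 and 61 in the controls. The rate ratios of 0.948 (0.695 to 1.29), 0.892 (0.626 to 1.27) and 0.698 (0.463 to 1.05) at 2, 6 and 24 hr all have exact 95% intervals that include 1. Without the read set that the early controls appear to share, the 6 hr ratio turned to 1.05 (0.668 to 1.70), so its direction rests on that set.
Over all 11953 genes tested, limma called 0 genes higher or lower with IL-13 (0% in each direction) at an adjusted p under 0.05, and 2025 genes had an unadjusted p under 0.05. CCL26, at 3.36 ± 0.57 on the log2 scale, was higher in 3 of 3 times and did not pass either (adjusted p = 0.177). CAPN1 at -0.06 ± 0.04, CAPN2 at -0.02 ± 0.05, CAPN10 at -0.04 ± 0.05 and CAPNS1 at -0.09 ± 0.04 had adjusted p between 0.395 and 0.852. CAPN14, CAPN13 and CAPN5 were under the filter of that fit.

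CAPN1, CAPN2 and CAST differed more between 24 and 6 hr than between IL-13 and control. CAPN2 fell to 82.4 RPKM at 24 hr with IL-13, against 202 RPKM at 6 hr, and to 86.3 RPKM in the 24 hr control, against 203 RPKM at 6 hr. It was the only gene of the family past the size rule, as 1 of 6 lower with IL-13 and 1 of 7 lower in the controls, against 5.01% and 6.09% of all genes, while 0 were higher against 14.9% and 16.2%. CAST was higher at 24 hr than at 6 hr, by 0.75 on the log2 scale with IL-13 and 0.84 in the controls. From 2 to 6 hr 0 of 6 genes were higher or lower in either treatment, against 0.522% of all genes higher and 2.9% lower with IL-13, and 0.2% and 2.36% in the controls. That earlier step went the other way for CAST, since CAST at 6 hr was below its 2 hr level by a log2 ratio of -0.74 with IL-13 and -0.53 in the controls.
In limma, 24 hr over 6 hr was -1.26 ± 0.06 for CAPN2 (adjusted p = 0.00042) and 0.79 ± 0.09 for CAST (adjusted p = 0.00228). CAPN1 at 0.27 ± 0.05 (adjusted p = 0.0110), CAPN7 at 0.25 ± 0.05 (adjusted p = 0.0136) and CAPNS1 at 0.18 ± 0.05 (adjusted p = 0.0365) also passed. CAPN10 did not, at -0.08 ± 0.07 (adjusted p = 0.302). That is 4 of 6 tested genes higher and 1 of 6 lower, against 46.6% and 26.1% of all 11953 genes, so most genes of the tables passed, and the share of the family is no result about it. The median of all genes itself shifted by 0.21 with IL-13 and by 0.23 in the controls. Relative to that shift CAPN2 remained at -1.5 and -1.46 and CAST at 0.54 and 0.62, with IL-13 and in the controls. CAPN1 then came to 0.07 and 0.03 and CAPN7 to 0.01 and 0.05, and CAPNS1 changed sign to -0.05 and -0.04. The call of CAPNS1 also ended without the filter (adjusted p = 0.0921) and without the 2 hr pair (adjusted p = 0.112).
CAPN5, under the filter, was 0.77 ± 0.13 higher at 24 hr in the limma fit without a filter (adjusted p = 0.0177), in which 32.1% of 19306 genes were called higher and 16.3% lower. Its rate ratio of 24 hr over 6 hr was 1.63 (exact 95% interval 1.09 to 2.42) with IL-13 and 2.08 (1.45 to 2.99) in the controls.
The balance within the classical system therefore differed between the libraries of different times. As for CAPN14, time cannot be told apart from the inferred single read set and header tag of the 24 hr libraries. The ratio of CAPN1 to CAPN2, in RPKM, was 0.726, 0.789 and 2.36 with IL-13 at 2, 6 and 24 hr, and 0.751, 0.836 and 2.35 in the controls. CAPN2 was thus the higher of the pair at 2 and 6 hr and CAPN1 at 24 hr, in both treatments. The sum of CAPN1 and CAPN2 over CAST was 4, 6.89 and 3.14 with IL-13, and 4.01, 6.15 and 2.66 in the controls. The ratio of calpain to calpastatin RNA was greatest at 6 hr, and at 6 and 24 hr it was greater with IL-13 than in the control. Its size rests on transcript lengths that are not given. CAPNS1 over the same sum was 0.442, 0.381 and 0.559 with IL-13, and 0.459, 0.392 and 0.577 in the controls.

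**Figure D3:**
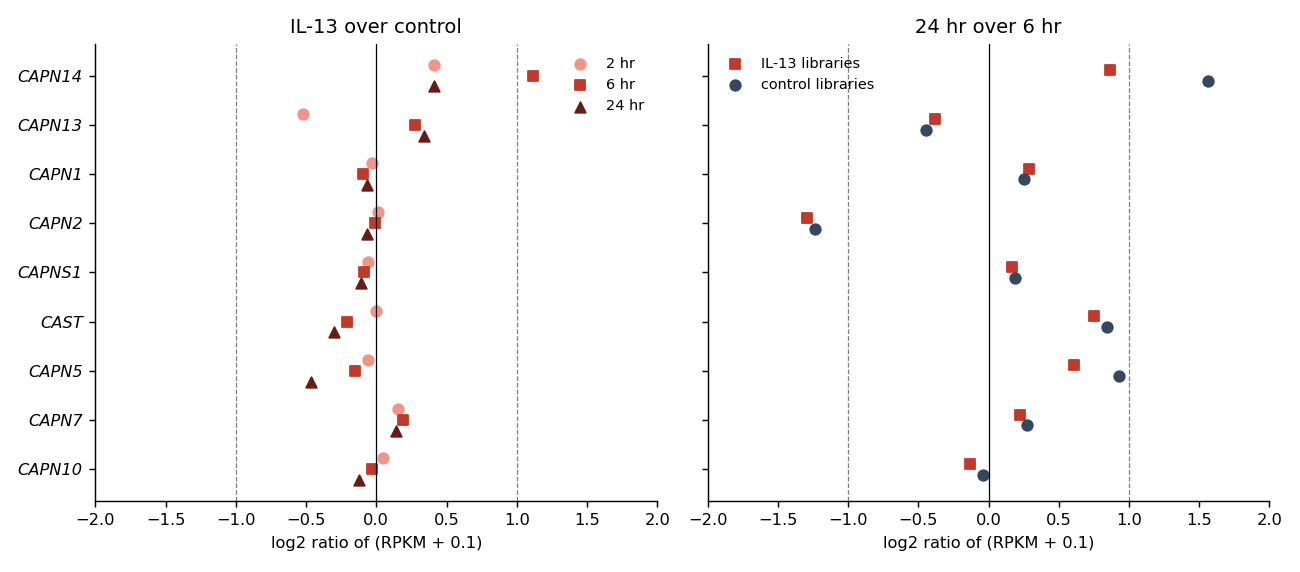
Log2 ratio of RPKM + 0.1 (horizontal axis) for the 9 genes, IL-13 over control at 2, 6 and 24 hr on the left and 24 hr over 6 hr on the right, with dashed lines at 2-fold. On the left CAPN14 at 6 hr, at 1.11, is the only point past a dashed line. That value depends on the added 0.1, being 2.37 with 0.01 and 0.19 with 1. On the right CAPN14 lies at 1.57 in the control, and CAPN2 at -1.29 with IL-13 and -1.23 in the control.

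Peaks of the 3 marks were listed at 8 of the 9 genes. CAPN1, CAPN2, CAPNS1, CAST, CAPN5, CAPN7 and CAPN10 had peaks of all 3 marks, as 54.2% of all genes did. CAPN14 had a peak of H3K27Ac alone, as 3.58% of genes did, and CAPN13 had none. Each peak carries the authors' M, the log2 ratio of library 1 over library 2 of that mark after their rescaling, and levels for both libraries were computed from it and the mean log2 level. A peak at a start means here a peak listed under that annotated gene start. The positions of the peaks themselves were not used. Neither headers nor labels state which library was treated with IL-13, so no direction of treatment is given for any peak.
At CAPN14 the single H3K27Ac peak, listed under the start at position 31440411 on chromosome 2 (hg19), was called in library 2 only. In the authors' deposited table its M was -3.08, with a −log10 p of 4.34, which gives levels of 2.95 in library 1 and 24.9 in library 2. The signal was thus 8.46-fold higher in library 2. An M at or below that value was found in 95 of the 15147 H3K27Ac peaks, or 0.627%. The closer comparison is with the 1587 peaks called in library 2 alone, of which 94 had such an M. In that class 89.3% of peaks had a negative M, so its members lean to library 2 by the way they were called. The peak was weak: 19.8% of all peaks had a level in library 2 at or below it, and it was under the minimum level of 30 used to count peaks. At CCL26 the authors' deposited table gives H3K27Ac M of -2.07 and -2.72 at the start at 75401572, and at SOCS1 -1.98 and -2.14, all with more signal in library 2. At a second start of CCL26, at 75419064 on chromosome 7, the authors' deposited table gives 0.04 and -0.38, of which the first has no excess in library 2. By its span the CAPN14 start at 31440411 is the CpG-poor one with both matches of the STAT6 motif, whose sequence is printed above. Whether the peak covers that window was not tested.
The nearest gene start to that of CAPN14, EHD3 at 16.5 kb, had peaks of all 3 marks. In the authors' deposited table its M was -0.93 for H3K27Ac, -0.49 for H3K4me3 and 0.97 for H3K9Ac, and that of GALNT14, at 78.8 kb, was -0.59, 0.15 and -0.05 for the same marks in turn. EHD3 RNA was 3.75, 5.72 and 4.58 RPKM with IL-13 at 2, 6 and 24 hr, against 4.14, 5.29 and 3.47 RPKM in the controls. GALNT14 had 6.86, 7.86 and 4.11 RPKM with IL-13, against 7.53, 8.61 and 4.96 RPKM in the controls. On GRCh38.p14 the far start of CAPN14 lies 195 bp from the RefSeq start of EHD3 on the opposite strand, and their windows have 294 bases in common, so signal of these 2 starts cannot be told apart. H3K27Ac alone therefore describes the peaks that the authors listed under CAPN14. Neither neighbour passed the size rule at any time, and CAPN13 starts 410 kb away.
The promoters of the classical genes were strongly marked and similar in both libraries. CAPN1 had H3K27Ac levels of 659 in library 1 and 562 in library 2, and CAPN2 had 409 and 417 at its start at 223900119. In the authors' deposited table the M at those peaks was 0.23 and -0.03. For CAPNS1 the authors' deposited table gives an M of 0.57 for H3K4me3 and 0.52 for H3K27Ac, both under 2-fold.
CAST and CAPN2 each had a start where a mark differed past 2-fold beside one where it did not. CAST has peaks at starts on chromosome 5 at 95997741 and 96038493 (hg19), and none at the start the RNA tables give, 96079244. Its H3K4me3 M was 1.94 at 96038493 (levels 53.8 in library 1 and 14 in library 2) and 0.06 at 95997741 in the authors' deposited table. For H3K27Ac the authors' deposited table gives 1.78 in a peak called in library 1 only at 95997741 (levels 99.0 and 28.8), beside a common peak there at 0.35. At 96038493 the same mark was at 0.19 and -0.46, so the marks that differed were not the same at both starts. CAPN2 had an H3K27Ac peak called in library 2 only at 223889295, with M of -1.28 in the authors' deposited table (levels 25.1 in library 1 and 61.0 in library 2). At the same start a stronger common H3K27Ac peak had an M of 0.22 (levels 167 in library 1 and 143 in library 2), and a weak H3K4me3 peak went the other way, at 1.58 (levels 9 in library 1 and 3.01 in library 2), in the authors' deposited table.
In counts, past 2-fold and the minimum level, 1 of 7 H3K4me3 peaks of the family was higher in library 1, against 6.02% of all peaks, and 0 in library 2, against 4.82%. For H3K27Ac 1 of 11 was higher in library 1 (5.04% of all) and 1 of 11 in library 2 (3.71%). For H3K9Ac it was 0 of 11 in either, against 3.79% and 3.59%. The nearest to the limit were CAPN5 at 0.96 and CAPN7 at 0.88, both for H3K9Ac, in the authors' deposited table. With at most 1 peak counted in a direction, the shares say little about the family.

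**Figure D4:**
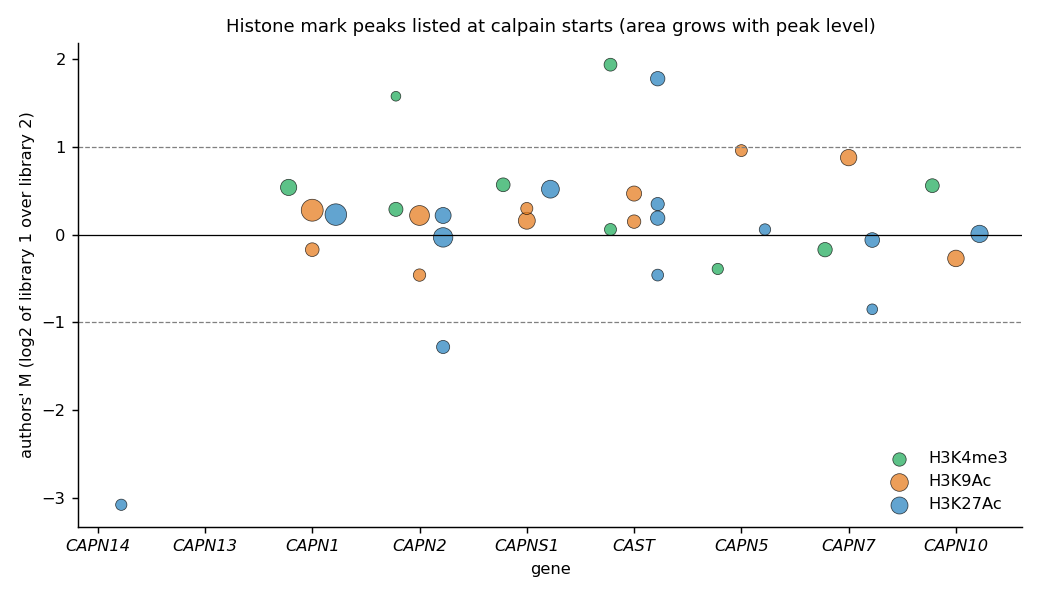
The authors' M, log2 of library 1 over library 2 (vertical axis), of each peak listed at the 9 genes (horizontal axis), coloured by mark, with dashed lines at 2-fold and symbol area growing with the level. CAPN14 has a single small symbol at -3.08, CAPN13 has none, and most peaks of the other genes lie between the dashed lines.

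The remaining calpain genes of the tables included a second small subunit with a pattern of its own. CAPNS2 (chromosome 16, 55600584 to 55601592, plus strand, hg19), an intronless relative of CAPNS1, had 2.41, 1.59 and 22.7 RPKM with IL-13 at 2, 6 and 24 hr, against 3.18, 2.62 and 35.3 RPKM in the controls. It was lower with IL-13 at each time, and far higher at 24 hr than before in both treatments. In reads this was 74, 55 and 321 with IL-13, against 143, 82 and 483 in the controls. The rate ratio of IL-13 over control was 0.756 (exact 95% interval 0.563 to 1.01) at 2 hr, 0.598 (0.417 to 0.852) at 6 hr and 0.643 (0.557 to 0.742) at 24 hr, so the interval of the first alone includes 1. Without the read set that the early controls appear to share, the 2 hr ratio was 0.669 (0.489 to 0.911), which leaves out 1. In limma the IL-13 effect was -0.57 ± 0.08 (adjusted p = 0.163, lower in 3 of 3 times) and the effect of 24 hr over 6 hr was 3.73 ± 0.09 (adjusted p = 0.000376). CAPNS2 lies inside LPCAT2 on the same strand. LPCAT2 had 19.0, 17.3 and 15.1 RPKM with IL-13, against 18.7, 17.5 and 15.6 RPKM in the controls, and so lay slightly lower at 24 hr than at 6 hr.
CAPN12, a calpain of skin, had 0.403, 0.164 and 1.26 RPKM with IL-13, against 0.466, 0.269 and 1.95 RPKM in the controls, lower with IL-13 at each time and higher at 24 hr. It overlaps the abundant ACTN4 on the opposite strand by 340 bp, and the part of ACTN4 reads in its value was not tested. SOLH, now CAPN15, had 15.7, 21.7 and 11.0 RPKM with IL-13, against 16.3, 20.4 and 10.7 RPKM in the controls, and 24 hr over 6 hr was -0.95 ± 0.06 (limma adjusted p = 0.000657). CAPN3, the muscle calpain, lay between 0.0468 and 0.228 RPKM, and CAPN8 and CAPN11 did not exceed 0.105 and 0.0350 RPKM. CAPN6 was at most 0.00518 RPKM, and CAPN9 and ADGB were listed at 0 in all 6 libraries.

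Genes around the calpains were read from lists of known substrates and of the epithelial barrier. Of 20 calpain substrates of cytoskeleton and adhesion, 0 of 19, 0 of 18 and 0 of 18 past the minimum were higher or lower with IL-13 at 2, 6 and 24 hr, where all genes gave 0.658% and 0.342%, 0.753% and 0.318%, and 0.886% and 1.27%. The median log2 ratios were -0.00, -0.05 and -0.06. At 24 hr over 6 hr, 1 of 18 was higher and 2 of 18 were lower in each treatment, against 14.9% of all genes higher and 5.01% lower with IL-13 and 16.2% and 6.09% in the controls. These substrates had a median log2 ratio of -0.25 with IL-13 and -0.34 in the controls, against 0.21 and 0.23 over all genes. FLNA, which cross-links actin, stood at 88.2 RPKM with IL-13 at 24 hr against 250 RPKM at 6 hr, and at 87.8 RPKM in the 24 hr control against 253 RPKM at 6 hr. ACTN1, an actin-bundling protein, stood at 77.7 RPKM with IL-13 at 24 hr against 251 RPKM at 6 hr, and at 72.8 against 213 RPKM in the controls. These 2 substrate genes were lower at 24 hr along with CAPN2, while GSN, the actin-severing gelsolin, was 1.5 higher on the log2 scale with IL-13 and 1.05 higher in the controls. Of 20 barrier genes, 14 passed the minimum with IL-13 at 24 hr, where 0 were higher and 2 were lower, against 0.886% and 1.27% of all genes. These were SPRR1B, at 1.96 RPKM with IL-13 against 8.69 RPKM in the control, and TGM1, at 25.5 against 53.0 RPKM. At 6 hr 1 of 14 was lower, against 0.318% of all genes. It was KRT4, at 0.606 RPKM with IL-13 against 1.38 RPKM in the control. At 2 hr 0 of 14 were higher or lower. The median of the barrier genes was -0.01, -0.27 and -0.33 at 2, 6 and 24 hr, against 0.00, -0.00 and 0.02 over all genes.
The genes whose log2 levels followed CAPN14 most closely over the 6 libraries, among 11824 genes, were PRR16, FNDC3A, HSBP1L1, C5orf63 and EIF2A, with Pearson correlations of 0.998, 0.995, 0.993, 0.986 and 0.985. With 6 libraries in 3 times and so many genes searched, such values describe these libraries only. Within the family CAPN14 and CAPN2 had a correlation of -0.855, and CAPN1 and CAPN2 of -0.914, over the same 6 libraries, which share the split between 24 hr and the earlier times.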

How the data were processed

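The authors deposited RPKM values and a log2 ratio with p-values for each time, per the file headers, and for each mark a rescaled log2 ratio (M), a mean log2 level (A) and a −log10 p of each peak. The submitters' processing notes name TopHat2 2.0.9, Bowtie 1.0.0, MACS2 2.0.10.20130712, DESeq and build hg19 (GRCh37). How reads were counted, whether by strand, and with which annotation is not given in the sources used here. The 6 columns of raw reads in the peak tables were not used, since the headers do not tie them to treated or control libraries.

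The design was written for either unit, and because the tables hold RPKM no count model was fitted. Log2 ratios used RPKM + 0.1, a scale on which low genes change less than they do in plain RPKM. A gene was counted, without a p-value, when it differed at least 2-fold and its higher library held 1 RPKM or more. limma 3.58.1 modelled the same log2 values on treatment and time in the 11953 genes that held 1 RPKM or more in 3 or more libraries, with Benjamini-Hochberg adjustment. Its p-values measure the spread over times or treatments, since each group is 1 library and nothing says that libraries came from separate cultures. On simulated data this fit called 96 of 100 genes changed by 1 on the log2 scale, with 12 false calls among 11855 genes. The simulated noise was independent between libraries and the simulated effect was equal at all 3 times, which real libraries need not meet. The simulation is therefore no measure of power here, where CCL26 at 3.36 on the log2 scale did not pass.

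Whole reads were recovered where RPKM times transcript length lay on sums of the steps that 1 read is worth in each read set. The steps came from low values of short RNA genes (MIR and SNOR symbols) times genomic span. Of those same values 91.4% to 92.7% lay on the steps, which is no check of the calpain genes. Lengths were searched from 300 to 9000 bp. The shortest of 2, 3 and 2 fitting lengths was taken for CAPN14, CAPN13 and CAPN5. For CAPNS2, with 58 fitting lengths, the genomic span was taken. The exact Poisson and conditional intervals of 95% cover counting error only. Levels of peaks are 2 to the power of A + 0.5 M for library 1 and A - 0.5 M for library 2. A peak was counted at an M of at least 1 in size and a level of at least 30, and peaks with identical values within 20 kb were counted once. RefSeq promoter windows (GRCh38.p14) matched 8 of the 9 genes by symbol, all but CAPN5.

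The genes and lists were chosen with earlier results of these data known. Besides the 9 genes, the text names the other calpain genes, up to 4 list members with the largest ratios past the size rule, the 5 genes most like CAPN14, CAPN1 and CAPN2, and CCL26 and SOCS1. The software was R 4.3.3 and Python 3.11.15 with SciPy 1.17.1, pandas 2.3.3 and matplotlib 3.10.9. Pseudocounts, filters, scalings, limits, left-out times and the shared read set were varied.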

Additional observations from a re-analysis of the deposited data

How the results depend on the processing

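Across 125 results and 588 recomputations, 526 kept their direction and side of the threshold or, with no test, stayed near the reported value, 58 moved, 2 lost the call and 2 fitted effects reversed. Part of the 526 could not move, because a change of the minimum RPKM leaves the log2 ratio of a single gene as it was. The 526 are therefore no measure of how stable the results are. Within those 526 and 58 recomputations, 5 log2 ratios without a test changed sign. When centred on all genes these were CAPNS1 at 24 hr over 6 hr with IL-13 and in the controls, and CAPN2 at 6 hr over 2 hr in the controls. The others were CAST with IL-13 at 2 hr, which was near 0, under 2 settings. Both reversals were IL-13 effects near 0 in limma without the 24 hr pair, CAPN2 at 0.0031 and CAPN10 at 0.00878 on the log2 scale, and both lost calls were CAPNS1 over time. With no minimum RPKM, 1 gene (CAPN14) was higher with IL-13 at 6 hr and 1 (CAPN14) at 24 hr over 6 hr in the controls. With a pseudocount of 0.01, 1 gene (CAPN5) was higher at 24 hr over 6 hr in the controls. Over all genes, limma called 7 higher with IL-13 with a pseudocount of 1, 6 with a mean trend and 3 without the 2 hr pair, against 0. H3K27Ac peaks of the family higher in library 2 numbered 0 at an M of 1.5 or with a −log10 p of at least 5, and 2 at a level of at least 10 or with no minimum level, against 1, the added peak being that of CAPN14. Higher in library 1 were 2 H3K4me3 peaks with no minimum level and 2 H3K27Ac entries with every start counted, against 1 each. With time as a term, the limma fit already pairs IL-13 and control libraries by time, and the labels hold no replicate numbers for another pairing. Depth limits CAPN14 and CAPN13, at 0 to 22 reads in a library.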

Other observations

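Of 13 other proteases and inhibitors of the cell interior, 0 were higher or lower with IL-13 at 2, 6 or 24 hr by the 2-fold rule, which took 0.318% to 1.27% of all genes in a direction. At 24 hr over 6 hr 2 of 13 were higher in each treatment, near the 14.9% of all genes with IL-13 and the 16.2% in the controls. CTSD, the lysosomal protease cathepsin D, was at 136 RPKM with IL-13 at 24 hr against 63.7 RPKM at 6 hr, and at 188 against 74.5 RPKM in the controls. CSTA, the inhibitor cystatin A of squamous epithelium, was at 128 RPKM with IL-13 at 24 hr against 59.9 RPKM at 6 hr, and at 117 against 53.3 RPKM in the controls. Of 14 barrier genes past the minimum, 5 were at least 2-fold higher at 24 hr over 6 hr with IL-13 and 6 were in the controls, against 14.9% and 16.2% of all genes. From 2 to 6 hr the same list went the other way, with 5 of 13 lower with IL-13 (median log2 ratio -0.88) and 1 of 13 lower in the controls (-0.54), against 2.9% and 2.36% of all genes. CLDN1, a tight junction claudin, was at 98.5 RPKM with IL-13 at 24 hr against 8.26 RPKM at 6 hr, and at 152 against 14.2 RPKM in the controls. Its level with IL-13 at 2 hr was 24.3 RPKM.

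The genes most like CAPN1 over the 6 libraries, among 11823, were TMEM45A, PHLPP1, UBR2, MGC57346 and NAPA, with Pearson correlations from 0.998 to 0.999. Those most like CAPN2 were LCP1, CDC25A, ANXA2P1, SENP3-EIF4A1 and B4GALNT1, from 0.999 to 1.000. CAPN3 had a single H3K27Ac peak, called in library 2 only, with M of -4.03 in the authors' deposited table and levels of 0.976 in library 1 and 15.9 in library 2. CAPNS2 had an H3K27Ac peak called in library 1 only, with M of 1.06 in the authors' deposited table.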
